A study of Mus musculus with 72 samples.

Results

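RNA from the olfactory epithelium was compared between the ectopicFzd1 line and its control at postnatal day 7 (P7), in pups given doxycycline (DOX) from P0 to P7. The members are 6 of the 72 libraries of the series, 3 ectopic and 3 control, taken by the genotype and DOX labels that their titles and sample descriptions share. All 6 carried Omp-IRES-tTA, an allele that adds the tetracycline-controlled activator tTA to the gene of olfactory marker protein. The 3 ectopic libraries also carried tetO-Fzd1-IRES-tdTomato, in which tTA switches on Fzd1 together with a red fluorescent marker. Whether the Omp-IRES-tTA allele was in 1 or 2 copies, the strain and the sex are not given in the labels. A group with the tetO transgene but no tTA is not among the libraries. The series also holds the same pair of genotypes with DOX at P1, P3, P10 and P14, both without DOX, and a knockout line, Fzd1lacZ, without DOX. Nothing in the labels ties the 3 libraries of a group to separate animals, and p-values here cover library-to-library spread, which may be technical.

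Fzd1 is a seven-pass receptor for Wnt ligands, which signal through beta-catenin, through the planar cell polarity pathway or through calcium. Omp is expressed in mature olfactory sensory neurons, so the tet-off system places ectopic Fzd1 in those neurons. DOX binds tTA and keeps it off the tetO promoter, so the transgene is meant to be silent in the 6 libraries from P0 on. It was not repressed before P0, so the comparison shows how the 2 genotypes differ after the transgene has been turned off. The olfactory epithelium holds sensory neurons, the basal cells that replace them, sustentacular cells rich in detoxifying enzymes, and the ducts of Bowman glands, which secrete mucus. Its bulk RNA also takes in glands, immune cells and connective tissue below the epithelium, and fewer cells of a type and less RNA per cell cannot be told apart in it.

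Some features of the libraries move with the genotype. The numbers in the titles of all 3 controls belong to a series that no other library carries, and those of the 3 ectopic libraries to another, so genotype and number series cannot be told apart. Reads counted in genes made up 36.1 to 47.2% of all reads in the controls and 24.0 to 31.5% in the ectopic libraries, giving 4883573 to 6279072 and 4267266 to 5212192 gene counts. A set of 13 repeat-like genes of the Gm10800 type took 0.132, 3.38 and 0.702% of gene counts in controls 1, 2 and 3 and 20.7, 5.84 and 8.04% in ectopic libraries 1, 2 and 3. The number of genes with at least 1 count was 25867 to 31198 in the controls and 33609 to 34566 in the ectopic libraries. Xist was high in controls 1 and 2 and in ectopic library 3, so the sexes were not balanced between the groups. No pair among the 6 agreed within sampling noise (chi-square per gene 4.17 to 28.9), so each was counted as a library of its own.

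**Figure D1:**
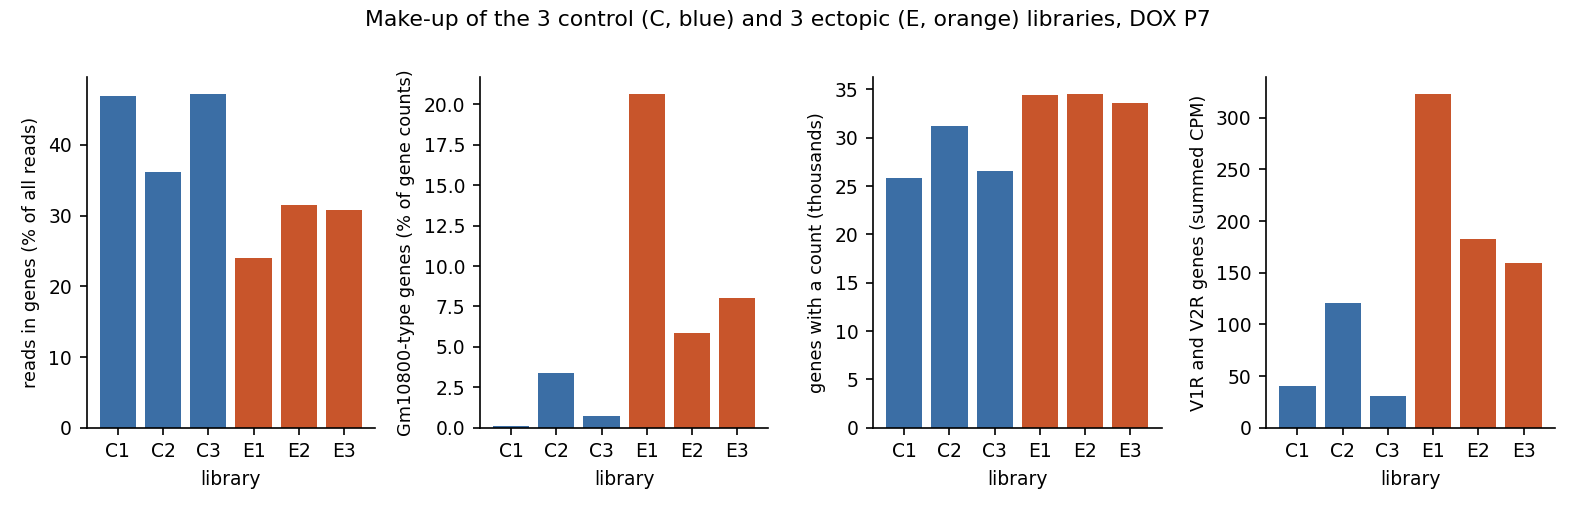
Make-up of the 6 DOX P7 libraries, with 1 marker or bar for each library and the controls and ectopic libraries in separate colours. The ectopic libraries hold a smaller percent of reads in genes (24.0 to 31.5%) and a larger percent of gene counts in Gm10800-type genes (5.84 to 20.7%) than the controls.

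The targeted gene was examined first. Fzd1 (ENSMUSG00000044674, chr5:4753839-4758035 on the minus strand of mm10) stood at 3.45, 37.6 and 31.5 CPM (counts scaled to a common library size by TMM) in controls 1, 2 and 3. In ectopic libraries 1, 2 and 3 it stood at 34.0, 33.1 and 22.0 CPM. Ectopic libraries 1 and 2 therefore lay between controls 2 and 3, and ectopic library 3 lay below both. Control 1, whose title carries library number 17, lay about as low as the Fzd1lacZ libraries at P7 (3.48 to 9.98 CPM). No other control library with DOX was below 20.7 CPM. Without DOX at P7 the ectopic libraries reached 615 to 728 CPM against 25.4 to 32.2 CPM in the controls. At P0 without DOX, the age at which DOX began, ectopic libraries were already at 205 to 354 CPM against 38.2 to 44.3 CPM. The part of this earlier expression in the differences at P7 was not tested.

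In edgeR's quasi-likelihood test, with Benjamini-Hochberg adjustment over all genes, the log2 fold change of Fzd1 with DOX at P7 was 0.31 (SE 0.44, adjusted p = 0.803). Without control 1 it was −0.22 (adjusted p = 0.877), so the sign of the estimate followed that 1 library. The mean log2(CPM + 1) was 4.91 ± 0.340 (SD, n = 3) in ectopic and 4.15 ± 1.73 (SD, n = 3) in control libraries, a difference of 0.767 with a 2-sided exact permutation p of 0.8. The smallest p that 3 against 3 libraries allow is 0.1. Setting DOX against no DOX at P7, the ectopic effect on Fzd1 differed by −4.27 on the log2 scale (adjusted p = 3.27e-04). Other genes that set Fzd1lacZ apart from the 12 other controls with DOX gave mixed values in the 3 controls. BC018473 was at 0.147 to 0.314 CPM in the 3 controls and 20.5 to 68.9 CPM in Fzd1lacZ, and Rprl3, an RNA gene at 0 to 8.71 CPM in Fzd1lacZ, was at 166.5 CPM in control 1 and 0.588 to 0.791 CPM in controls 2 and 3. Trim12a, at 4.21 to 13.1 CPM in Fzd1lacZ and at most 0.204 CPM in the 12 other controls with DOX, was at 4.55, 5.54 and 4.56 CPM in controls 1, 2 and 3. These levels were not confined to the knockout. Trim12a was at 4.10 to 15.6 CPM in the controls at P0 without DOX, and Rprl3 went down to 0.302 CPM among the other ectopic libraries with DOX. The counts of calls that the text turns on are given with and without control 1.

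**Figure D2:**
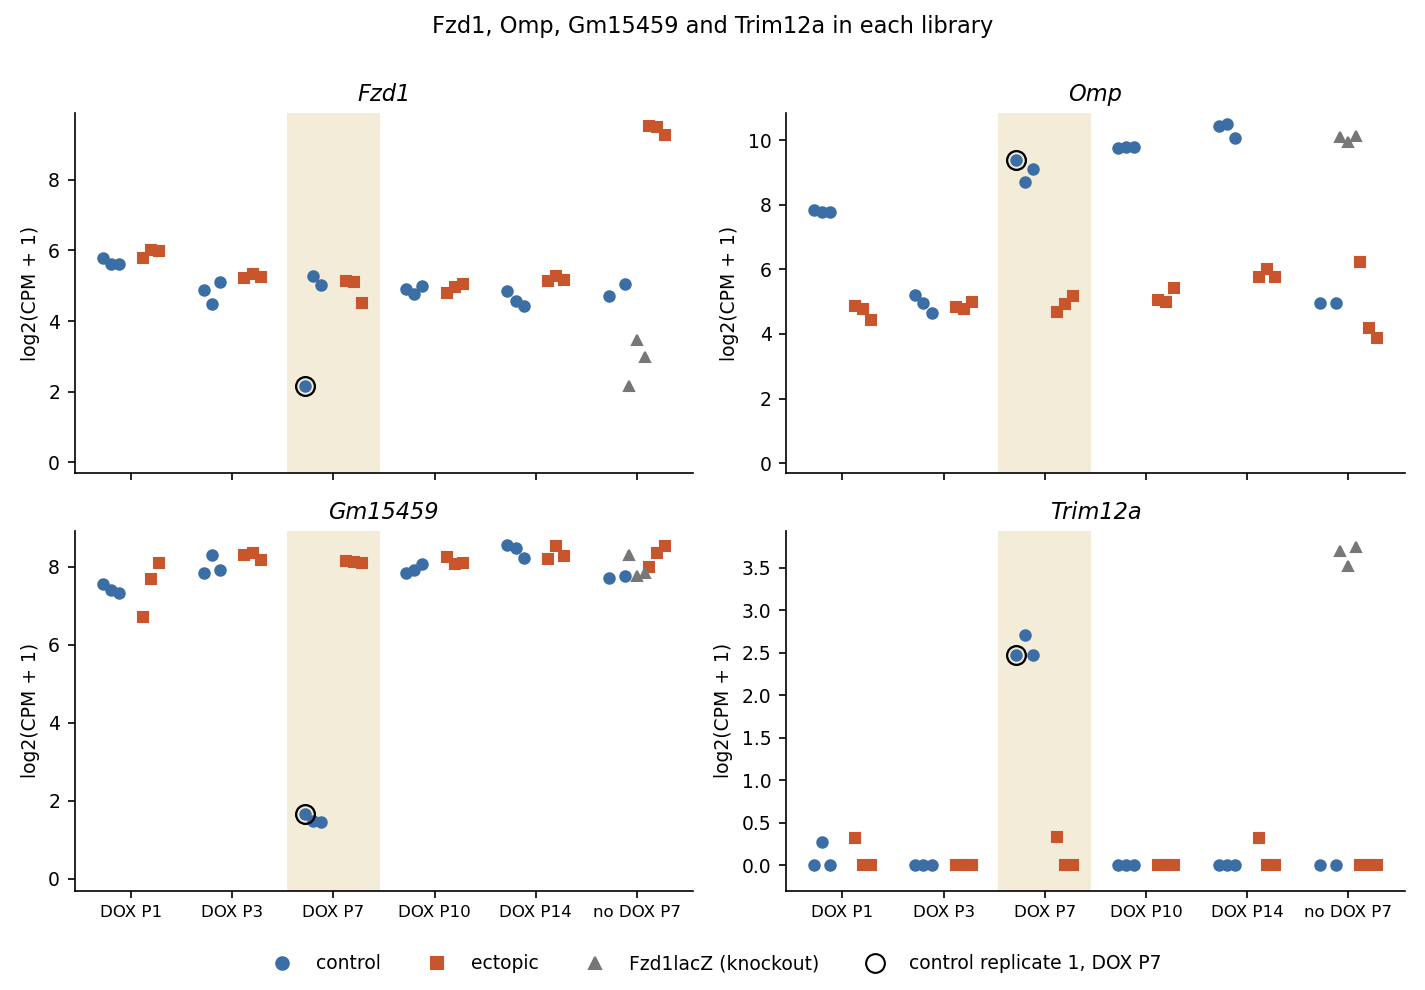
Level, as log2(CPM + 1), of Fzd1, Omp, Gm15459 and Trim12a in single libraries of the groups compared, 1 point for each library. Control replicate 1 with DOX at P7 has 3.45 CPM of Fzd1 beside 31.5 and 37.6 CPM in the other 2 controls, while Omp separates all 3 controls (412 to 673 CPM) from all 3 ectopic libraries (24.5 to 35.1 CPM).

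Of 22144 genes tested across all libraries in 1 model, 126 (0.569%) passed an adjusted p of 0.05 in edgeR's quasi-likelihood test, 44 (0.199%) higher and 82 (0.37%) lower in the ectopic libraries. The CPM of the 2 groups overlapped for 25 of the 126 and did not overlap for the rest, while 23.2% of all genes tested had no overlap. Without control 1, 170 genes passed (0.768%), 33 of them higher (0.149%) and 137 lower (0.619%). In both versions 80 genes were called, 27 higher and 53 lower, and 84 of the 90 called only without control 1 were lower. DESeq2 called 198 (0.851%), of which 117 were among the 126. Leaving out control 2, ectopic library 1 or ectopic library 2 lowered the count to 30, 28 and 52.

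The calls that held in all 6 fits that left out 1 library numbered 17, 11 higher and 6 lower. The 6 lower ones were Omp, Trim12a, Fut10, Cep83os, Hmox1 and Edn2. The 11 higher ones were Hsd17b14, 9 pseudogenes or noncoding genes known by predicted names (2900052N01Rik, Gm13410, Gm15459, Gm15920, Gm26825, Gm3608, Gm44964, Gm9008 and Gm9855), and Rpl15-ps2, a pseudogene of a ribosomal protein gene. These names were taken after their values were seen.

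**Figure D3:**
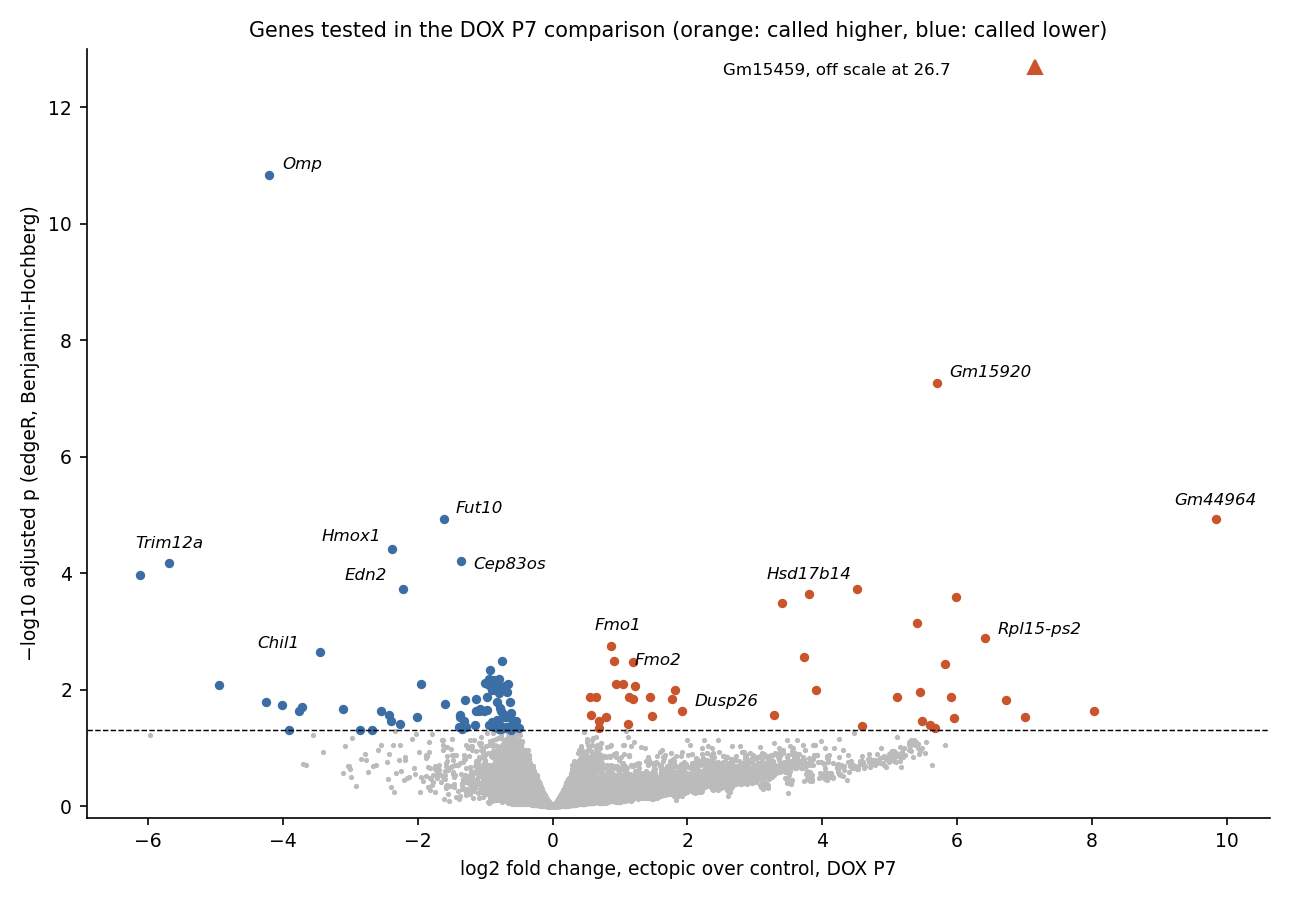
Every gene tested at DOX P7, by log2 fold change of ectopic over control (horizontal axis) and −log10 of the adjusted p (vertical axis), with the dashed line at 0.05. The 44 genes called higher are orange and the 82 called lower are blue, and Omp and Gm15459 lie above all other genes.

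Omp, the gene of olfactory marker protein, which is a cytosolic protein of mature olfactory sensory neurons and the site of the tTA insertion, gave the largest well-measured fall. Omp (ENSMUSG00000074006, chr7:98143359-98145502) was at 673, 412 and 554 CPM in controls 1, 2 and 3 and at 24.5, 29.4 and 35.1 CPM in ectopic libraries 1, 2 and 3. The groups did not overlap. The log2 fold change was −4.20 (SE 0.39, adjusted p = 1.45e-11), and without control 1 it was −4.02 (adjusted p = 2.99e-10). With DOX, control Omp was at 218 to 228 CPM at P1, 23.9 to 36.2 CPM at P3, 865 to 890 CPM at P10 and 1072 to 1444 CPM at P14. In the ectopic libraries it stayed at 20.6 to 63.6 CPM over the same ages. The controls at P3 with DOX, and the 2 controls at P7 without DOX at 29.99 and 30.13 CPM, thus lay with the ectopic libraries rather than with the controls at P7 with DOX. The log2 difference between genotypes without DOX at P7 was 0.09, and the change between DOX and no DOX was −4.29 (adjusted p = 7.57e-06). The effect at P7 was not shown to differ from the mean of the other DOX ages (difference −1.09, adjusted p = 0.128). The number of copies of the Omp-IRES-tTA allele in each library was not tested.

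The other 19 mature neuron markers did not follow Omp. They cover the odour transduction chain, such as the G protein gene Gnal, the adenylyl cyclase gene Adcy3 and the channel genes Cnga2, Cnga4 and Cngb1, and none of the 19 was called by edgeR or by DESeq2. Over the list of 20 the median log2 fold change was −0.10, against 0.027 for all genes tested. Their summed level without Omp was 3206 to 4529 CPM in the controls and 2909 to 4035 CPM in the ectopic libraries. Adcy3 had the lowest estimate, −0.60 (adjusted p = 0.258), with 251, 176 and 203 CPM in the controls and 111.1, 140 and 163 CPM in the ectopic libraries. Without control 1 the list's median was 0.04.

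The neuronal lineage was counted in the same way. Of 15 tested markers of immature olfactory sensory neurons none was called by edgeR or DESeq2 and none had an unadjusted p under 0.05, a value that 14.5% of all genes tested had, and the median was −0.09. Gap43, the growth cone protein gene, was at 312, 227 and 281 CPM in the controls and 207, 252 and 298 CPM in the ectopic libraries (−0.11, SE 0.25, adjusted p = 0.880), so the groups overlapped. Of 14 markers of globose basal cells and progenitors none was called by edgeR, 3 had an unadjusted p under 0.05 and 1 was called by DESeq2. Sox2, a transcription factor gene of basal and sustentacular cells, had the largest estimate of these, 0.50 (SE 0.15, adjusted p = 0.114), with 36.68, 36.58 and 37.05 CPM in the controls and 53.6, 50.9 and 51.5 CPM in the ectopic libraries. None of 20 cell cycle genes was called by either tool or had an unadjusted p under 0.05, and the median was 0.02. Of 10 horizontal basal cell markers none was called by either tool and 3 had an unadjusted p under 0.05, with 9 estimates below 0 and a median of −0.40. In these 4 lists the TPM medians were −0.41, −0.28, −0.28 and −0.50, beside −0.208 over all genes. Mitochondrially encoded genes, 7 in number, had estimates above 0 throughout, with a median of 0.36 (0.03 in TPM) and no call by either tool.

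Of 203 genes tested within 10 Mb of Omp, leaving out Omp and the odorant receptors there, 3 were called (1.48%, against 0.569% of all genes tested), and 5 without control 1 (0.768% of all genes). Within 10 Mb of Fzd1 3 of 72 were called (4.17%, against the same 0.569%), namely Gm15772, Gm26825 and Gm15459. Gm15459 lies within Gm26825, so their calls come from 1 locus and may share reads. Trim12a, a member of the tripartite motif family of antiviral proteins, had 29, 28 and 31 reads in the controls and 1, 0 and 0 in the ectopic libraries (chr7:104299894-104315466). The summed level was 71.2-fold higher in the controls, with a 95% counting interval of 12.4 to 2842, and the log2 fold change was −5.69 (SE 0.81, adjusted p = 6.55e-05). All 12 other control libraries with DOX had 0 to 0.204 CPM, so Trim12a was present in the P7 controls and near absent from both genotypes at the other DOX ages. Myo7a, which encodes a myosin of sensory stereocilia and microvilli, was at 19.6, 22.9 and 19.7 CPM in the controls and 9.45, 12.4 and 9.64 CPM in the ectopic libraries (−0.97, SE 0.21, adjusted p = 0.0131). Tenm4, a teneurin adhesion receptor gene, fell by 0.61 on the log2 scale (adjusted p = 0.0400).

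The largest rises were in pseudogenes and other genes that were nearly silent in 1 genotype. Of the 44 genes called higher, 16 were pseudogenes, 6 were other noncoding genes and 22 were protein-coding, whereas pseudogenes made up 2.99% of all genes tested. Processed pseudogenes share reads with their parent genes, so their levels are uncertain. Gm15459 (chr5:5781615-5783555), which lies within the lincRNA gene Gm26825, had the smallest p. It was at 2.19, 1.78 and 1.76 CPM in the controls and at 284, 278 and 270.0 CPM in the ectopic libraries (log2 fold change 7.16, SE 0.30, adjusted p = 2.17e-27). The 12 other controls with DOX held 158.5 to 376 CPM and the other 66 libraries of the series a median of 257 CPM, so the 3 controls, and not the ectopic libraries, lay away from the other controls. The difference from the other DOX ages was 7.02 (adjusted p = 5.57e-26).

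Gm15920, a processed pseudogene on chromosome 5, behaved alike, with 3, 1 and 1 reads in the controls and 67, 84 and 77 in the ectopic libraries. Its level was 56.4-fold higher in the ectopic libraries, with a counting interval of 23.8 to 175, and every one of the 12 other controls with DOX had at least 10 reads. Gm44964 had 0, 1 and 0 reads in the controls and 238, 292 and 573 in the ectopic libraries, and was at 10 or more reads in 3 of the 12 other controls with DOX and 9 of the 12 other ectopic libraries with DOX. In all, 15 genes had at most 3 reads in each control and at least 10 in each ectopic library, and Trim12a was the 1 gene with the reverse pattern. Of these 16 genes, 8 were pseudogenes and 11 were called.

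Hsd17b14, a hydroxysteroid dehydrogenase gene, was the protein-coding gene of this kind that held in all 6 fits leaving out 1 library. It had 2, 0 and 1 reads in the controls and 13, 14 and 11 in the ectopic libraries, a ratio of 15.7 with a counting interval of 4.97 to 79.3. The log2 fold change was 3.80 (SE 0.63, adjusted p = 2.24e-04). At the other DOX ages the mean effect on Hsd17b14 was 0.94 (adjusted p = 0.0343), in the same direction. Catspere1, annotated as a pseudogene, had no read in the controls and 13, 11 and 16 in the ectopic libraries, at least 16.5-fold higher when set against a floor of 3 reads for the control group, with a lower 95% counting limit of 12.8-fold. Catspere2, its neighbour on chromosome 1, rose by 1.78 on the log2 scale, from 2.98, 5.14 and 4.56 CPM to 13.02, 14.4 and 15.8 CPM (adjusted p = 0.0145), and it too was higher at the other DOX ages (1.15, adjusted p = 0.00170). Rps3a3 and Hist1h2al were called although ectopic library 3 lay at 0.771 and 0 CPM, within the controls.

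A second set of rises was smaller and rested on well-expressed protein-coding genes. Dusp26, a phosphatase gene expressed in neurons, was at 10.3, 9.10 and 7.35 CPM in the controls and 28.9, 37.4 and 34.7 CPM in the ectopic libraries (1.92, SE 0.45, adjusted p = 0.0228). The 12 other controls with DOX held 22.4 to 59.1 CPM, so here again the P7 controls were the low group. Car11, a carbonic anhydrase-related gene, was at 10.7, 10.1 and 7.20 CPM against 17.4, 18.4 and 27.8 CPM (1.20, SE 0.23, adjusted p = 0.00330). Wdfy1, which encodes an endosomal FYVE-domain protein, rose from 56.0, 52.8 and 51.0 CPM to 100, 118 and 133 CPM (1.14, SE 0.25, adjusted p = 0.0135). Hddc3 rose by 1.23 and Serpinb7, a serpin gene, by 1.04 (adjusted p = 0.00863 and 0.00802). Ntn4, a netrin gene, and Mdga2, a synaptic adhesion gene, rose by 1.19 and 1.45 but did not pass without control 1 (adjusted p = 0.0693 and 0.0505). Of the 6 fits that left out 1 library, Car11 was called in 5, Hddc3 and Serpinb7 in 4 and Wdfy1 in 3. Ntn4 and Mdga2 were called in 2, and Dusp26 in 1.

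Flavin monooxygenases, enzymes that oxidise foreign nitrogen and sulphur compounds, were among these. Fmo1 was at 32.6, 29.9 and 33.1 CPM in the controls and 71.5, 56.4 and 48.0 CPM in the ectopic libraries (0.87, SE 0.16, adjusted p = 0.00179). Fmo2 was at 113.01, 73.96 and 122 CPM against 202, 176 and 203 CPM (0.91, SE 0.17, adjusted p = 0.00315). Neither overlapped between the groups, and both passed without control 1. Fmo1 was lost without ectopic library 1 and Fmo2 without control 2. The 12 other controls with DOX held 28.4 to 56.5 CPM of Fmo1 (median 41.2) and 103.5 to 191 CPM of Fmo2 (median 152). In a list of 23 tested xenobiotic metabolism genes, composed after values had been seen, these 2 were called, against 0.199% of all genes called higher. Of the 23 estimates 22 were above 0, and the median was 0.35. Cyp2g1, the olfactory cytochrome P450 of sustentacular cells, did not pass (0.63, adjusted p = 0.226), with 2070, 1057 and 1751 CPM in the controls and 2630, 2249 and 2690 CPM in the ectopic libraries. Of 15 tested sustentacular markers only Fmo2 was called by edgeR, against the same 0.199% of all genes. DESeq2 called Fmo2 and Ermn, and the median of the 15 markers was 0.27. In deposited TPM, where limma's estimates had a median of −0.208 over all genes against 0.027 in counts, the medians of the xenobiotic and sustentacular lists were both 0.01. Cd36, a scavenger receptor gene expressed by a subset of olfactory neurons and by endothelium, rose from 84.02, 93.3 and 85.1 CPM to 181, 161 and 162 CPM (0.94, adjusted p = 0.00802).

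Among the falls, Fut10 was the protein-coding gene called lower at P7 that kept its sign at every DOX age apart from Omp. Fut10 encodes a fucosyltransferase and lies on chromosome 8 at 31187331 to 31261738, near Dusp26 (31089471 to 31097047). It was at 31.7, 26.1 and 30.1 CPM in the controls and 9.70, 9.92 and 9.06 CPM in the ectopic libraries (−1.62, SE 0.23, adjusted p = 1.18e-05). The mean effect at the other DOX ages was −0.95 (adjusted p = 1.28e-06), with 10.3 to 29.0 CPM in the controls and 6.08 to 13 CPM in the ectopic libraries. Cep83os, a noncoding gene read from a promoter shared with Cep83, was at 23.8, 21.0 and 29.4 CPM against 13.3, 7.97 and 8.29 CPM (−1.36, SE 0.21, adjusted p = 6.11e-05), and its mean at the other DOX ages was −0.74 (adjusted p = 7.69e-05).

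Acute-phase and cytokine genes supplied 13 of the 82 genes called lower. They come from a list of 30 such genes, composed after values had been seen, so the list is not independent evidence of their direction. It had 27 tested members, all with estimates below 0 and with a median of −1.30. The 13 called compare with 0.37% of all genes called lower, and without control 1 the list held 6 of the 137 genes called lower (0.619% of all genes). The upstream stretches of 4 of the called genes are shown because NF-kB and C/EBP factors are known to drive acute-phase genes. The 4 were taken from the 5 that held such a match among 9 called genes with a RefSeq window, and the other 4 of the 9 held neither match. They are the 250 bases before the RefSeq start in GRCm38.p6, 5′ to 3′ on the gene's strand, and capitals mark matches to the NF-kB-type letters GGGANTTTC and the C/EBP-type letters TTGCNNAA on either strand. They lie at chr5:30012864-30013113 on the plus strand for Il6, at chr5:90890995-90891244 on the plus strand for Cxcl1, at chr2:32387740-32387989 on the minus strand for Lcn2 and at chr7:46715677-46715926 on the minus strand for Saa3.
Il6: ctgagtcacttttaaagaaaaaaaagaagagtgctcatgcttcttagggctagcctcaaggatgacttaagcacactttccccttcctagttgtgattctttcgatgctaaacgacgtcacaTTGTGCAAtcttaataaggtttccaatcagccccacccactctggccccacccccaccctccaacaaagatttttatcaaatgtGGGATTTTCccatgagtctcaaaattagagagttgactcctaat
Cxcl1: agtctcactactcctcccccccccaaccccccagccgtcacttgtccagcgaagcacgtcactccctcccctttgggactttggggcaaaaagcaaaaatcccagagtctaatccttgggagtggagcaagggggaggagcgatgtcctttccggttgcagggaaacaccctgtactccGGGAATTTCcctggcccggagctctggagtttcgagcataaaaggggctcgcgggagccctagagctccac
Lcn2: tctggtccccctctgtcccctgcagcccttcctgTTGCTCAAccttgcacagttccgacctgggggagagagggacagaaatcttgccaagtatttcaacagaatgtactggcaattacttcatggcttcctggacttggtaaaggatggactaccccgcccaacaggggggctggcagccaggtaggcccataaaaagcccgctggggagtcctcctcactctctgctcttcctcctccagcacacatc
Saa3: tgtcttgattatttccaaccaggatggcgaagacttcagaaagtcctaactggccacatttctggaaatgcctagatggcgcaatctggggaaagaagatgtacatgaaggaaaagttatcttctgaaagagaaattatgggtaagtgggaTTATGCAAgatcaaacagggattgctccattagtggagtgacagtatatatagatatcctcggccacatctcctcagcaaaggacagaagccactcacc
Il6 held the NF-kB-type match beginning 44 bases and the C/EBP-type match beginning 128 bases before the start, Cxcl1 the NF-kB-type match at 71 bases, and Lcn2 and Saa3 the C/EBP-type match at 216 and 99 bases. Of 32851 promoter windows of this length, 0.941% held GGGANTTTC, 9.56% held TTGCNNAA and 7.02% held the STAT-type letters TTCNNNGAA. Of the 27 tested genes of the list 19 had a window, and the counts among these 19 were 5, 6 and 1 for the letters in that order. A match is a description of the letters in the window and does not show binding.

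Chil1, a chitinase-like secreted protein of inflamed airways, was at 179, 416 and 16.5 CPM in controls 1, 2 and 3 and at 18.4, 17.01 and 20.1 CPM in the ectopic libraries (−3.45, SE 0.65, adjusted p = 0.00228). Control 3 lay below all 3 ectopic libraries, so the fall rested on controls 1 and 2. The same order was seen for Lcn2, the siderophore-binding lipocalin of innate defence, at 284, 506 and 28.1 CPM against 35.2, 42.2 and 91.99 CPM (−2.26, SE 0.56, adjusted p = 0.0384). Il6, the cytokine that drives the acute-phase response, was at 18.2, 9.29 and 0.294 CPM against 0.511, 0.177 and 0.964 CPM (−4.02, adjusted p = 0.0186). Saa3, a serum amyloid A gene, was at 17.2, 29.7 and 0 CPM against 1.28, 0.886 and 1.35 CPM (−3.71, adjusted p = 0.0196). In each of these 4 genes controls 1 and 2 were high and control 3 was within or below the ectopic libraries.

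Other called members were the neutrophil growth factor gene Csf3 (−3.10), the chemokine genes Cxcl1 (−2.67) and Cxcl5 (−1.38), the calprotectin subunit gene S100a9 (−1.95), and the regulators Cebpd (−1.30) and Socs3 (−1.02). Lbp, the lipopolysaccharide-binding protein gene, was at 78.8, 104.2 and 45.6 CPM against 37.02, 33.5 and 33.4 CPM (−1.13, adjusted p = 0.0145) and did not overlap. Osmr, the oncostatin M receptor gene, and Pigr, the receptor that carries IgA across epithelia, fell by 1.13 and 2.43. Pigr belongs to the gland list as well. Without control 1, Il6, Lcn2, Csf3, Cxcl1, Cxcl5, Cebpd, Socs3 and Osmr did not pass, while Chil1, Saa3, S100a9, Pigr and Lbp did. Without control 2, none of these called members passed. The members Il1b (−2.03, adjusted p = 0.0585), Ccl20 (−2.33, adjusted p = 0.0505) and Tnf (−1.03, adjusted p = 0.486) did not pass.

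The summed level of the list was 1337, 2222 and 464 CPM in controls 1, 2 and 3 and 445, 474 and 485 CPM in ectopic libraries 1, 2 and 3. The other 66 libraries held 301 to 1497 CPM with a median of 444, so control 2 stood above every other library and control 3 and the ectopic libraries lay near the median. Controls 1 and 2 are the Xist-high controls, and ectopic library 3, which was also Xist-high, was at 485 CPM. With Xist-high libraries as a term, chosen after seeing the data, 93 genes were called, 51 of them lower, and 9 of the 47 genes named by rule no longer passed. Il6 and Lcn2 were among those 9, with log2 fold changes of −3.56 and −2.08 (adjusted p = 0.0751 and 0.0795) beside −4.02 and −2.26 without the term. Of 14 neutrophil and mast cell markers 9 were tested, 7 of them with estimates below 0, and S100a9, which is in both lists, was the only one called. Their summed level was 876, 1427 and 422 CPM in the controls and 324, 748 and 454 CPM in the ectopic libraries. Mpo, a granule enzyme of neutrophils, was at 0, 0.791 and 0 CPM in the controls and 1.16 to 2.55 CPM in the ectopic libraries, and the mast cell protease genes Cpa3 and Cma1 were at 0 to 1.19 CPM in all 6. The 15 macrophage markers had no call by edgeR or DESeq2, with 4 at an unadjusted p under 0.05, and summed to 190 to 324 CPM in the controls and 157 to 231 CPM in the ectopic libraries. The part of these cells and of sex in the falls was not tested further.

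**Figure D4:**
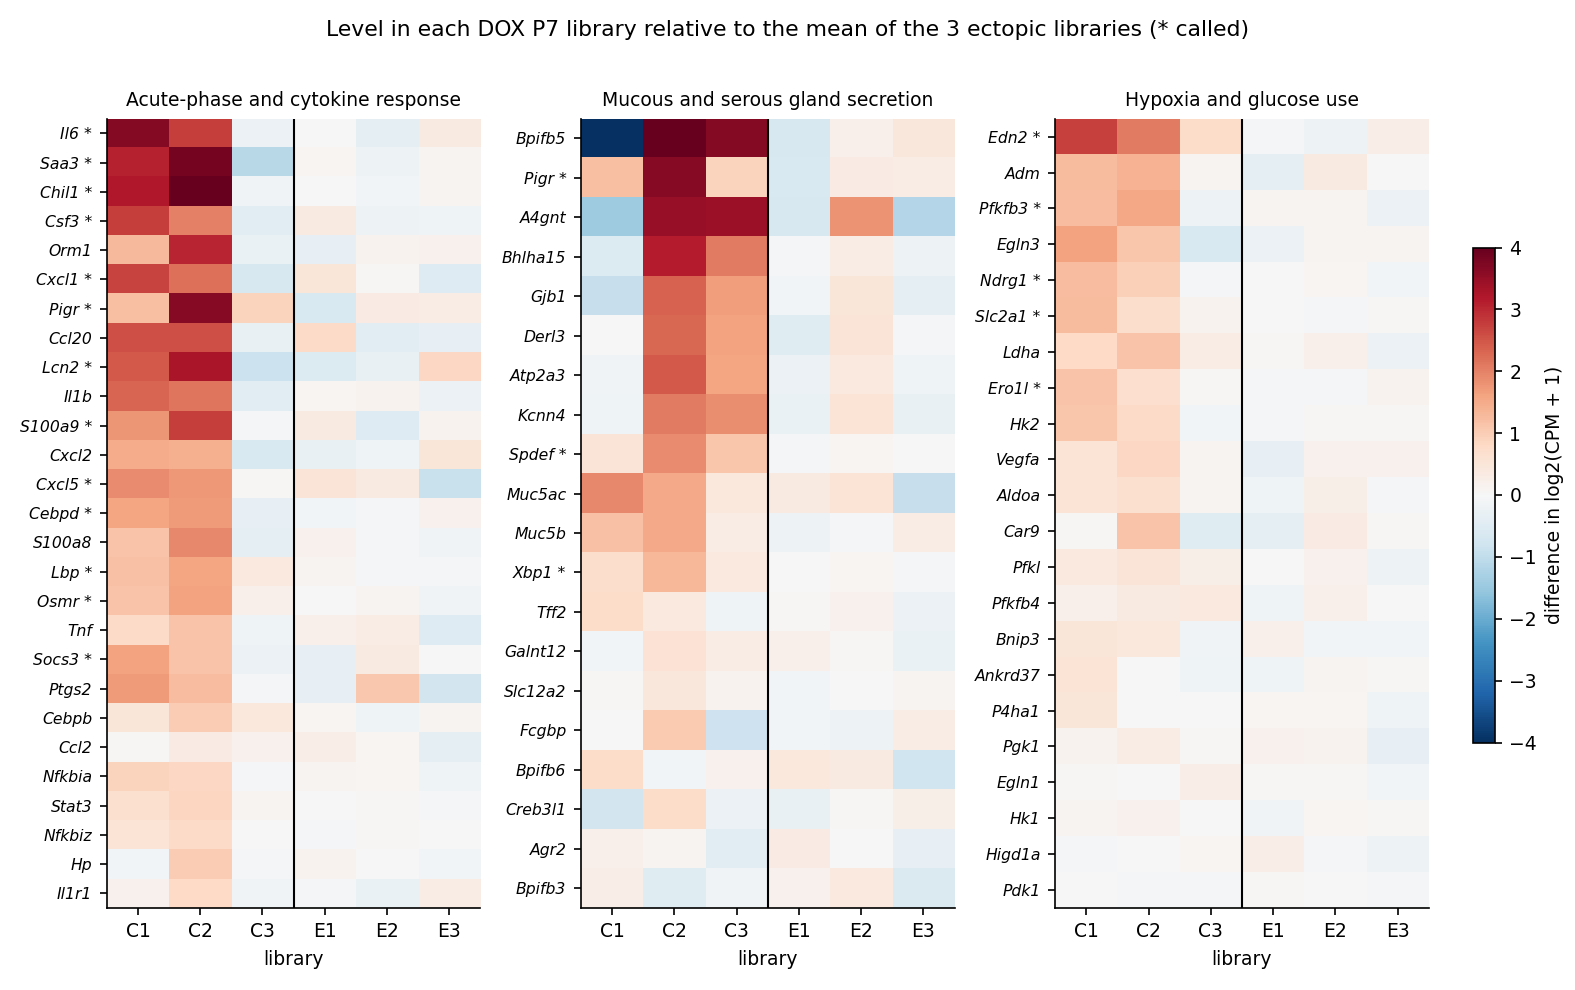
Heat maps of acute-phase, hypoxia and gland genes in the 6 DOX P7 libraries, 1 column for each library. Colour gives the difference in log2(CPM + 1) from the mean of the 3 ectopic libraries. Controls 1 and 2 are above the ectopic libraries for Chil1 (179 and 416 CPM) and Lcn2 (284 and 506 CPM), and control 3 lies with the ectopic libraries (16.5 and 28.1 CPM).

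Hmox1 and 5 genes of hypoxia and glucose use fell, and in these 6 genes controls 1 and 2 were above control 3. Hmox1, heme oxygenase 1, was at 121, 39.4 and 10.1 CPM in controls 1, 2 and 3 and at 8.43, 13.1 and 10.99 CPM in the ectopic libraries (−2.37, SE 0.36, adjusted p = 3.81e-05). The other 66 libraries held 5.80 to 24.6 CPM, below controls 1 and 2. Without control 1 the estimate was −1.14 (adjusted p = 0.0487). Of 12 heme and antioxidant genes, a list also composed after values had been seen, Hmox1 was the only one called. Edn2, the endothelin 2 gene, was at 45.1, 27.9 and 10.6 CPM against 5.62, 4.96 and 7.33 CPM (−2.21, SE 0.36, adjusted p = 1.84e-04), and all 3 controls were above the ectopic libraries. With Edn2 the hypoxia and glucose list, also composed after values had been seen, had 5 of 22 members called lower, against 0.37% of all genes, and a median of −0.44. The other 4 were the glucose transporter gene Slc2a1 (−0.79), the glycolytic regulator Pfkfb3 (−1.07), Ndrg1 (−0.82) and the oxidoreductase gene Ero1l (−0.69). Without control 1 only Edn2 passed (−1.66, adjusted p = 0.0170). The list summed to 1954, 1930 and 1327 CPM in the controls and 1211, 1366 and 1180 CPM in the ectopic libraries.

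Immediate early genes gave 2 calls of 17 tested, both lower, against 0.37% of all genes called lower, and neither passed without control 1. Atf3, a stress-induced transcription factor gene, was at 13.6, 8.11 and 5.88 CPM against 2.55, 2.13 and 4.44 CPM (−1.59, SE 0.36, adjusted p = 0.0176). Ier3 was at 42.6, 34.0 and 10.4 CPM against 11.2, 14.2 and 9.83 CPM (−1.29, adjusted p = 0.0439). Map3k8, a kinase gene of inflammatory signalling, and Neat1, the noncoding RNA of paraspeckles, fell by 1.34 and 1.39 (adjusted p = 0.0471 and 0.0437). Neat1 was at 1032, 1329 and 512 CPM in the controls and 253, 420 and 422 CPM in the ectopic libraries.

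Gland genes were mostly highest in control 2, and the order of the other 2 controls differed among them. In a list of 20 gland secretion genes, composed after values had been seen, control 2 was the highest of the controls for 15, and control 1 was the lowest for 11 and control 3 for 7. Spdef, a transcription factor gene of mucus-secreting cells, was at 10.2, 27.7 and 15.9 CPM in controls 1, 2 and 3 and 6.38, 7.27 and 6.75 CPM in the ectopic libraries (−1.37, SE 0.33, adjusted p = 0.0267). Pigr was at 63.6, 349 and 51.0 CPM against 17.1, 34.0 and 33.2 CPM (−2.43, SE 0.58, adjusted p = 0.0271). Xbp1, which drives the secretory programme of gland and plasma cells, was at 255, 395 and 206 CPM against 155, 165 and 154 CPM (−0.85, SE 0.22, adjusted p = 0.0437). These 3 had no overlap and were the called members of the list (0.37% of all genes were called lower), whose median was −1.19. Each of the 3 was lost when control 2 or any 1 of the ectopic libraries was left out. Without control 1, 10 of the 20 were called lower, against 0.619% of all genes. Bhlha15, the secretory regulator also called Mist1, was at 2.67, 46.7 and 22.1 CPM against 4.09, 5.67 and 3.66 CPM, and passed only without control 1 (−2.90, adjusted p = 0.0154, against −2.36, adjusted p = 0.0878). The secreted protein gene Bpifb5 ranged from 3.76 CPM in control 1 to 1889 and 1172 CPM in controls 2 and 3, with 58.7, 105 and 124.96 CPM in the ectopic libraries.

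The list summed to 2976, 5513 and 3625 CPM in the controls and 2275, 2445 and 1840 CPM in the ectopic libraries, all within the 1055 to 8119 CPM of the other 66 libraries. A separate list of 19 tested Bowman gland and nasal secretory genes had no call by edgeR or DESeq2, with 6 at an unadjusted p under 0.05, and summed to 10370, 44800 and 29870 CPM in the controls and 13040, 13700 and 11760 CPM in the ectopic libraries. The amount of gland tissue in each sample was not tested. All 16 unfolded protein response genes had estimates below 0, with a median of −0.29. Of these 1, the stress gene Herpud1, was called (−0.79, adjusted p = 0.0383), and 2 were called without control 1. Of all genes, 0.37% and 0.619% were called lower in these 2 fits. Sftpc, a surfactant protein gene of lung, and Vnn3, a pantetheinase gene, were at low levels and fell by 2.01 and 3.90 (adjusted p = 0.0296 and 0.0494), with at most 8.53 and 5.54 CPM in any control.

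For the 82 genes called lower, control 3 was the lowest of the controls in 46, control 1 in 27 and control 2 in 9, and control 2 was the highest in 52. In 59 of the 82, control 3 was within 1.5 times the highest ectopic library. Small falls, such as that of Khnyn (−0.50), can meet this limit by their size alone. These counts by control were not made for all genes tested. Set against the 12 other controls with DOX, whose ages differ, all 3 ectopic libraries were within the range for 63 of the 82 genes and all 3 controls for 17. For the 44 genes called higher these counts were 29 and 20, and all 3 controls were below the range for 14 (31.8%), against 3.85% of all genes tested. For all genes tested, all 3 ectopic libraries were within the range in 75.3% and all 3 controls in 70.7%. Some calls rested on 1 or 2 controls, such as Sprr2a3 at 44.9 CPM in control 2 and 0.157 and 1.32 CPM in controls 1 and 3.

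Wnt pathway genes and receptors were examined for an effect at repressed Fzd1. Of 16 Wnt receptors and co-receptors none was called with or without control 1 by edgeR, none by DESeq2 and 3 had an unadjusted p under 0.05, and the median was −0.05. Lrp6, the co-receptor for beta-catenin signalling, was at 175, 196 and 182 CPM against 144.3, 171 and 137 CPM (−0.29, adjusted p = 0.296), and Fzd3, which acts in axon guidance and planar polarity, at 237, 225 and 241 CPM against 190.2, 207 and 254 CPM (−0.11, adjusted p = 0.769). Of 13 beta-catenin target genes none was called by either tool and 2 had an unadjusted p under 0.05, with a median of −0.24. Axin2, the feedback inhibitor, was at 20.5, 27.3 and 24.1 CPM against 18.6, 22.9 and 25.3 CPM (−0.10, adjusted p = 0.831). Rnf43, which removes Frizzled receptors from the surface, passed only without control 1, at 23.5, 43.5 and 39.6 CPM against 24.3, 20.6 and 24.5 CPM. Of 15 planar cell polarity genes 14 estimates were below 0, 2 had an unadjusted p under 0.05 and none was called by either tool (median −0.20, against −0.24 without control 1).

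None of 978 tested odorant receptor genes was called by edgeR or DESeq2, 43 had an unadjusted p under 0.05 (14.5% of all genes tested did), and their median was 0.03 (0.13 without control 1). Their share of gene counts was 0.324, 0.247 and 0.270% in the controls and 0.254, 0.241 and 0.315% in the ectopic libraries, so the groups overlapped. The means were 0.280 ± 0.0398% (SD, n = 3) in control and 0.270 ± 0.0396% (SD, n = 3) in ectopic libraries, a difference of −0.0103 percentage points with a 2-sided exact permutation p of 0.6. At the other DOX ages 57 of the 978 odorant receptors were called lower, against 0.47% of all genes tested, and the median was −0.45. Without DOX at P7 the median was −1.04. The difference of P7 from the other DOX ages passed for 2 of the 978, against 1.41% of all genes tested. That of DOX from no DOX passed for 10, against 0.145% of all genes. The near-identical copies in this family can share or lose reads. The vomeronasal receptor families V1R and V2R had estimates above 0 in 78 of 83 and 69 of 72 tested genes, with medians of 1.91 and 1.86, no call by either tool and 26 and 23 genes at an unadjusted p under 0.05, and their TPM medians were both 0.06. Over all listed genes they summed to 13.5 to 52.01 CPM (V1R) and 16.9 to 68.6 CPM (V2R) in the controls. Each ectopic library held at least 75.98 and 83.3 CPM, and ectopic library 1, with the most Gm10800-type counts, was the highest for both. Over the tested genes alone, the 12 other controls with DOX, whose ages differ, held 50.5 to 246.6 CPM (V1R) and 61.25 to 287.9 CPM (V2R). On that scale the P7 controls, at 10.9 to 41.3 and 14.7 to 54.8 CPM, lay below both ranges. All 3 ectopic libraries, at medians of 70.35 and 78.15 CPM, lay within them, so here too the P7 controls were the low group.

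**Figure D5:**
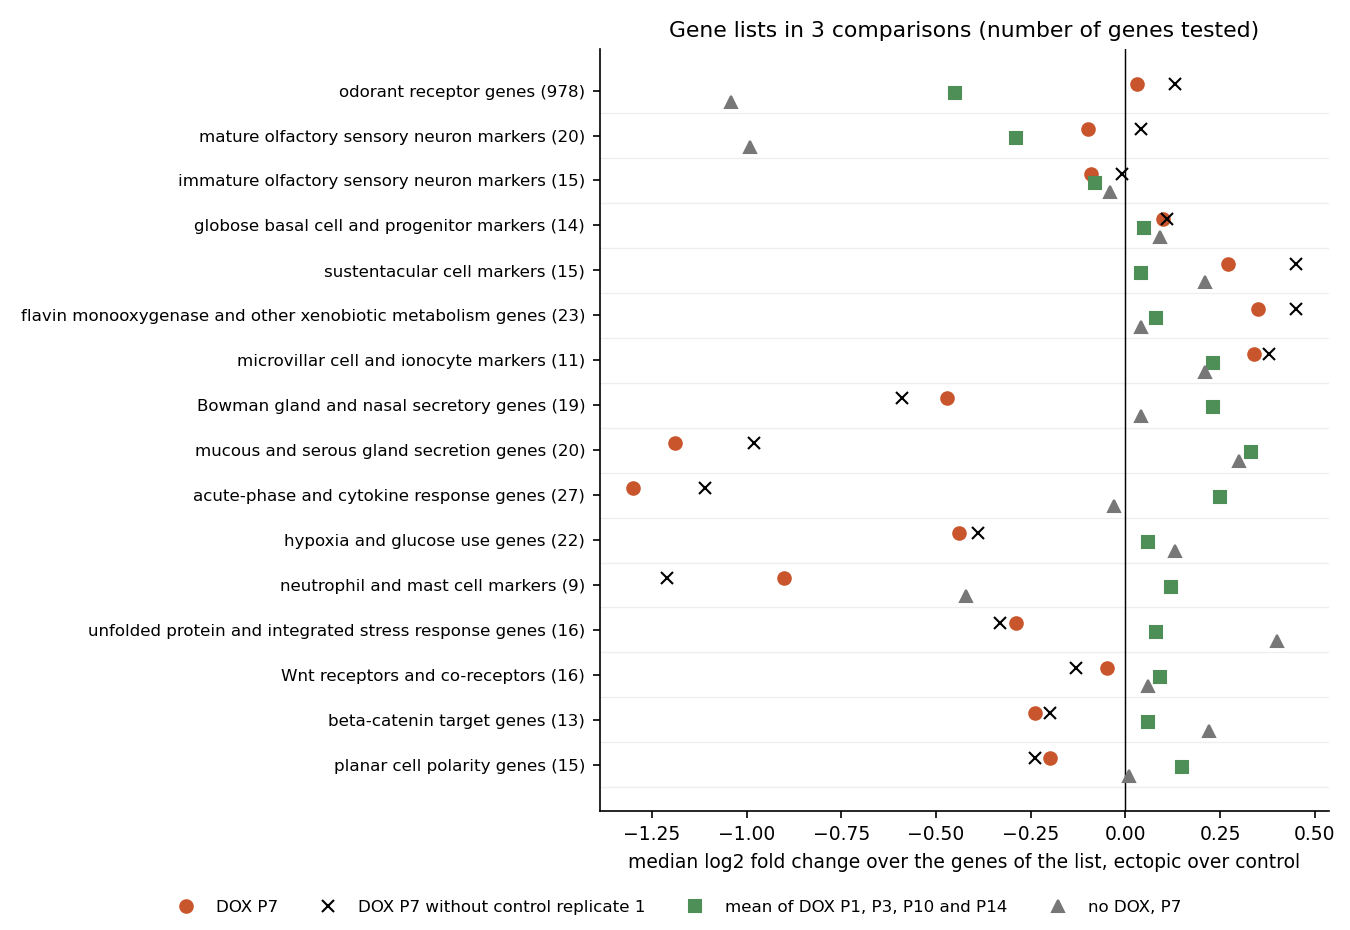
Median log2 fold change of ectopic over control for each gene list (number of tested genes in brackets) with DOX at P7, with DOX at P7 without control replicate 1, as the mean over the other 4 DOX ages, and without DOX at P7. The acute-phase list is at −1.30 with DOX at P7 and 0.25 over the other DOX ages, and the odorant receptor list is at 0.03 with DOX at P7 and −1.04 without DOX.

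The P7 pattern was set against the same genotypes at the other DOX ages, where the 3 ectopic libraries at P3 share 1 number in their titles. Averaged over P1, P3, P10 and P14, 289 genes (1.31%) were called, 185 of them higher (0.835%) and the rest lower (0.47%), and without control 1 at P7 in the model the count was 300. Of the 126 genes called at P7, 21 were among them, 18 with the same sign. The signs matched for 34 of the 44 genes called higher at P7 and 23 of the 82 called lower, beside 39.4% of all genes tested. At all 4 other ages the sign matched for 14 of the 44 and for 2 of the 82, Omp and Fut10 being the latter (Omp with −0.09 at P3), while for all genes tested it matched for 4.39%. A test of the difference itself, P7 minus the mean of the other DOX ages, called 313 genes (1.41%), 68 higher (0.307%) and 245 lower (1.11%), and 82 of the 126 were among them. Without control 1 it called 330, 35 higher and 295 lower. Chil1 differed by −4.76, Lcn2 by −3.70, Pigr by −3.43 and Hmox1 by −2.46 (adjusted p = 2.55e-04, 0.00152, 0.00508 and 5.88e-04). Of the 27 acute-phase genes 17 differed, and their median at the other DOX ages was 0.25. Both counts over other ages rested on single ages: without P1 they were 30 and 62, and without P3 they were 1315 and 897, in fits chosen after seeing the data.

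Without DOX at P7, where Fzd1 is on, 156 genes (0.704%) differed between the genotypes. The ectopic effect with DOX minus that without DOX was called for 32 genes (0.145%), 11 of them among the 126. These included Omp, Gm15459 (6.57), Gm15920 (5.56), Hsd17b14 (4.10), Mdga2 (2.36) and Edn2 (−3.50). Edn2 had an estimate of 1.29 without DOX and −2.21 with DOX. Necab1, which encodes a neuronal calcium-binding protein, was not called with DOX (0.47, adjusted p = 0.223), with 30.4, 21.2 and 28.7 CPM in the controls and 33.4, 35.4 and 42.4 CPM in the ectopic libraries, but its effect differed by 1.77 from that without DOX (adjusted p = 9.69e-04). The share of 0.145% rose to 0.51% of the genes tested without control 1 and fell to 0.0587% without control 2, 0.0904% without control 3 and 0.0542% without ectopic library 3.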

How the data were processed

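Total RNA was extracted with TRIzol and made into ribosome-depleted stranded libraries, per the labels' protocols. Per the submitters' processing notes the authors used bcl2fastq 2.18, STAR 2.6.1c, RSEM and the build mm10. The deposited counts are whole reads per gene, and the deposited TPM values are scaled for length and library by the authors. Which annotation the authors counted on, and whether counting took account of strand, is not given in the sources used here, so overlapping and antisense genes are uncertain. Of the gene IDs, 99.93% matched GENCODE M21, used for positions.

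Counts from all 72 libraries in 25 groups were fitted with edgeR 4.0.16 in R 4.3.3 (filterByExpr, TMM, quasi-likelihood test, Benjamini-Hochberg threshold 0.05). Summary lines that name no gene were left out of library sizes. CPM are counts over TMM-scaled library sizes. Fzd1 and odorant receptor shares were compared by exact permutation over 20 arrangements. Counting intervals are exact 95% intervals and cover counting error only. The analysis was tested on simulated data. Alternatives were DESeq2 1.42.0, its size factors, other filters, fewer libraries, limma 3.58.1 on log2(TPM + 1) and log2(TPM + 0.1) computed from the deposited TPM, removal of Gm10800-type genes, an Xist term, single ages left out and each library left out.

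Genes named are Fzd1, Omp, Xist and Ddx3y, then, from the calls at a mean log2 CPM over 0 without a predicted or pseudogene name, the 12 largest rises and falls without overlap and the 6 largest that also passed without control 1, up to 4 called genes of each list with at least 2 calls, up to 6 with the same sign at all DOX ages, and up to 6 by smallest p in each test of a difference. Other genes are named as list members, as neighbours, or as calls singled out after their values were seen. The members, lists and rules were chosen with earlier results of these data known.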

Additional observations from a re-analysis of the deposited data

Results flagged for a closer look

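The ectopic effect at P7 with DOX differed from the mean of the other DOX ages, by a test of the difference itself in edgeR, for 27 of the genes named. Higher at P7 by comparison, on the log2 scale, were Gm15459 (7.02), Gm9855 (6.05), Slc38a8 (5.25), Gm15920 (4.98), Mir124a-1hg (4.70), Hsd17b14 (2.86), 2900052N01Rik (2.66), Dusp26 (1.77), Mdga2 (1.40), Hddc3 (1.09) and Serpinb7 (1.07). Lower by comparison among acute-phase and related genes were Il6 (−4.77), Chil1 (−4.76), Lcn2 (−3.70), Pigr (−3.43), S100a9 (−2.19), Map3k8 (−1.50) and Lbp (−1.30). Lower among stress, hypoxia and nuclear RNA genes were Hmox1 (−2.46), Edn2 (−2.07), Neat1 (−1.46), Slc2a1 (−0.94) and Ndrg1 (−0.87). Lower among secretory and other genes were Vnn3 (−5.59), Sftpc (−2.75), Spdef (−1.67) and Xbp1 (−1.09).

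The effect at P7 differed between DOX and no DOX for 9 of the genes named. It was lower with DOX for Omp (−4.29), Fzd1 (−4.27) and Edn2 (−3.50), and higher with DOX for Gm15459 (6.57), Gm15920 (5.56), Hsd17b14 (4.10), 2900052N01Rik (3.66), Mdga2 (2.36) and Necab1 (1.77). The no-DOX control group at P7 holds 2 libraries.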

How the results depend on the processing

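The count of 126 called genes became 198 with DESeq2, 590 with no filter, 28 with only the 6 DOX P7 libraries, 260 with only the 30 DOX libraries, and 22 and 16 with limma on log2(TPM + 1) and log2(TPM + 0.1). Leaving out 1 library gave 28 to 178. The 313 genes whose effect differed from the other DOX ages became 977 with no filter, 62 and 897 without P1 or P3, and 13 to 330 leaving out 1 library. The 0.145% of genes that differed from no DOX became 0.802% with DESeq2, 0.361% with its size factors, 0.816% with no filter, 0.318% with a mean CPM of at least 1, and 0.0542 to 0.51% leaving out 1 library. The 289 called over the other DOX ages became 30 and 1315 without P1 or P3. The Fzd1 difference turned from 0.767 to −0.231 without control 1 (range leaving out 1 library −0.231 to 1.33), and its fitted log2 fold change to −0.22 (range −0.22 to 0.75). The odorant receptor difference turned positive outside the Gm10800-type genes (0.0222), without control 1 (0.0116) and without ectopic library 2 (0.00418), with a range of −0.0329 to 0.0116. The causes were not tested. Of 513 alternative values for the 47 genes named, 1 reversed, and the calls lost numbered 30 with limma on log2(TPM + 1), 28 without control 2, 24 with only the 6 libraries, 24, 23 and 18 without ectopic libraries 1, 2 and 3, 15 without control 1, 9 with the Xist term, 6 without control 3 and 2 with DESeq2. No paired analysis was possible because the labels give the groups no shared replicate numbers. Sequencing depth limits genes under about 10 reads.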

Other observations

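Sex markers differed between libraries of the same group, and Xist served only to define the term in an alternative fit. Xist was at 708, 903 and 5.0 CPM in controls 1, 2 and 3 and at 4.60, 3.19 and 834 CPM in ectopic libraries 1, 2 and 3. Ddx3y was at 0.157, 0.198 and 57.9 CPM in the controls and 74.3, 71.9 and 0 CPM in the ectopic libraries. Among chromosomes with over 1000 genes tested, the percent of genes called ran from 0.166% on chromosome 6 to 1.07% on chromosome 1.

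Skeletal muscle genes summed to 21.3, 35.4 and 21.0 CPM in the controls and 65.6, 55.8 and 44.2 CPM in the ectopic libraries, and the other 66 libraries held 15.9 to 340 CPM. None of the 15 muscle genes was called by edgeR or DESeq2 and 5 had an unadjusted p under 0.05, with a median log2 fold change of 0.93 in counts and 0.01 in TPM. Some genes called lower were high in 1 or 2 controls only: Gm11942 at 42.5, 0.396 and 46.6 CPM in the controls, Gm8730 at 0.314, 0.989 and 56.0 CPM, and Gm9625 at 0.314, 0.791 and 19.0 CPM, each with at most 1.28 CPM in an ectopic library.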
